A study of Mus musculus with 2 samples.

Results

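The TAM receptor and engulfment genes Mertk, Axl, Tyro3, Gas6, Pros1, Mfge8, Elmo1 and Elmo2 were followed through peak lists of H3K79me2, dimethylation of lysine 79 of histone H3. These 8 genes were taken by name from the 21938 protein-coding genes of the mouse annotation, by their roles in engulfment and with no threshold on a measured value. Earlier results of these data were known when the genes were chosen. The data were ChIP-seq of macrophages grown from bone marrow of strain C57BL/6J and left unstimulated, in 1 group of 2 biological replicates, each from 10 ng of DNA and both set against the same control experiment. Both replicates carry the same donor identifier in the labels, which give no sex and no age and do not say whether animals or cultures were separate. The deposited values were 4 lists of peaks on mm10: 1 for each replicate alone, 1 for the pooled alignments, and 1 called the replicated list, which the authors derived from both replicates. With 1 group and no read counts, no test between conditions was possible, and all values below are descriptions.

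Macrophages recognise dying cells by phosphatidylserine on the outer face of the membrane, and 2 of the routes that follow are represented here. In the first, the soluble proteins Gas6 and protein S bind phosphatidylserine with one end and the receptor tyrosine kinases Tyro3, Axl and Mertk (TAM receptors) with the other, while Mfge8 bridges phosphatidylserine to αv integrins. In the second, Elmo proteins join Dock exchange factors to activate Rac, which drives the actin-based cup around the dying cell. H3K79me2 is placed by the methyltransferase Dot1l over the 5′ part of genes that are being transcribed, so its peaks show where a gene carries this modification and how far into the gene it reaches.

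Depth per library is unknown. The list of replicate 1 had 22979 peaks over 63.5 Mb (median fold 4.34 over the control), and that of replicate 2 had 31577 peaks over 114 Mb (median fold 4.70). The pooled list held 26838 peaks and the replicated list 15559. Every fold is the authors' own value for a peak and was used within a list, to describe peaks, to filter them and to pick genes of like fold. All 8 macrophage markers checked had a covered base and 7 were marked, against 30.3% of all coding genes marked in the replicated list. The 14 markers of T cells, B cells, neutrophils, dendritic cells and fibroblasts had no covered base in the replicated list or either replicate's. An empty gene was common, since 60.1% of all coding genes had no base in any of the 4 lists. "Marked" here means that peaks of a list covered 200 bp or more between the outermost annotated 5′ end of a gene and 3 kb downstream. A gene that is not marked has too little called there, and may still carry the modification below the limit of peak calling. In a bulk population, fewer cells with the modification and less of it per cell cannot be told apart.

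Of the 8 genes, Mertk, Gas6, Elmo1 and Elmo2 were marked in the replicated list, against 30.3% of all coding genes. The same 4 were marked in replicate 1, where the share of all coding genes was 27.2%. Replicate 2 marked these and Axl, 5 of 8 against 35.6%, as did the pooled list, 5 of 8 against 34.3%. Tyro3, Pros1 and Mfge8 had no base in any of the 4 lists, which was true of 60.1% of all coding genes. By role, 1 of 3 receptors, 1 of 2 soluble TAM ligands and 2 of 2 Elmo adaptors were marked in the replicated list, and the gene of the bridging protein was not.

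**Figure D1:**
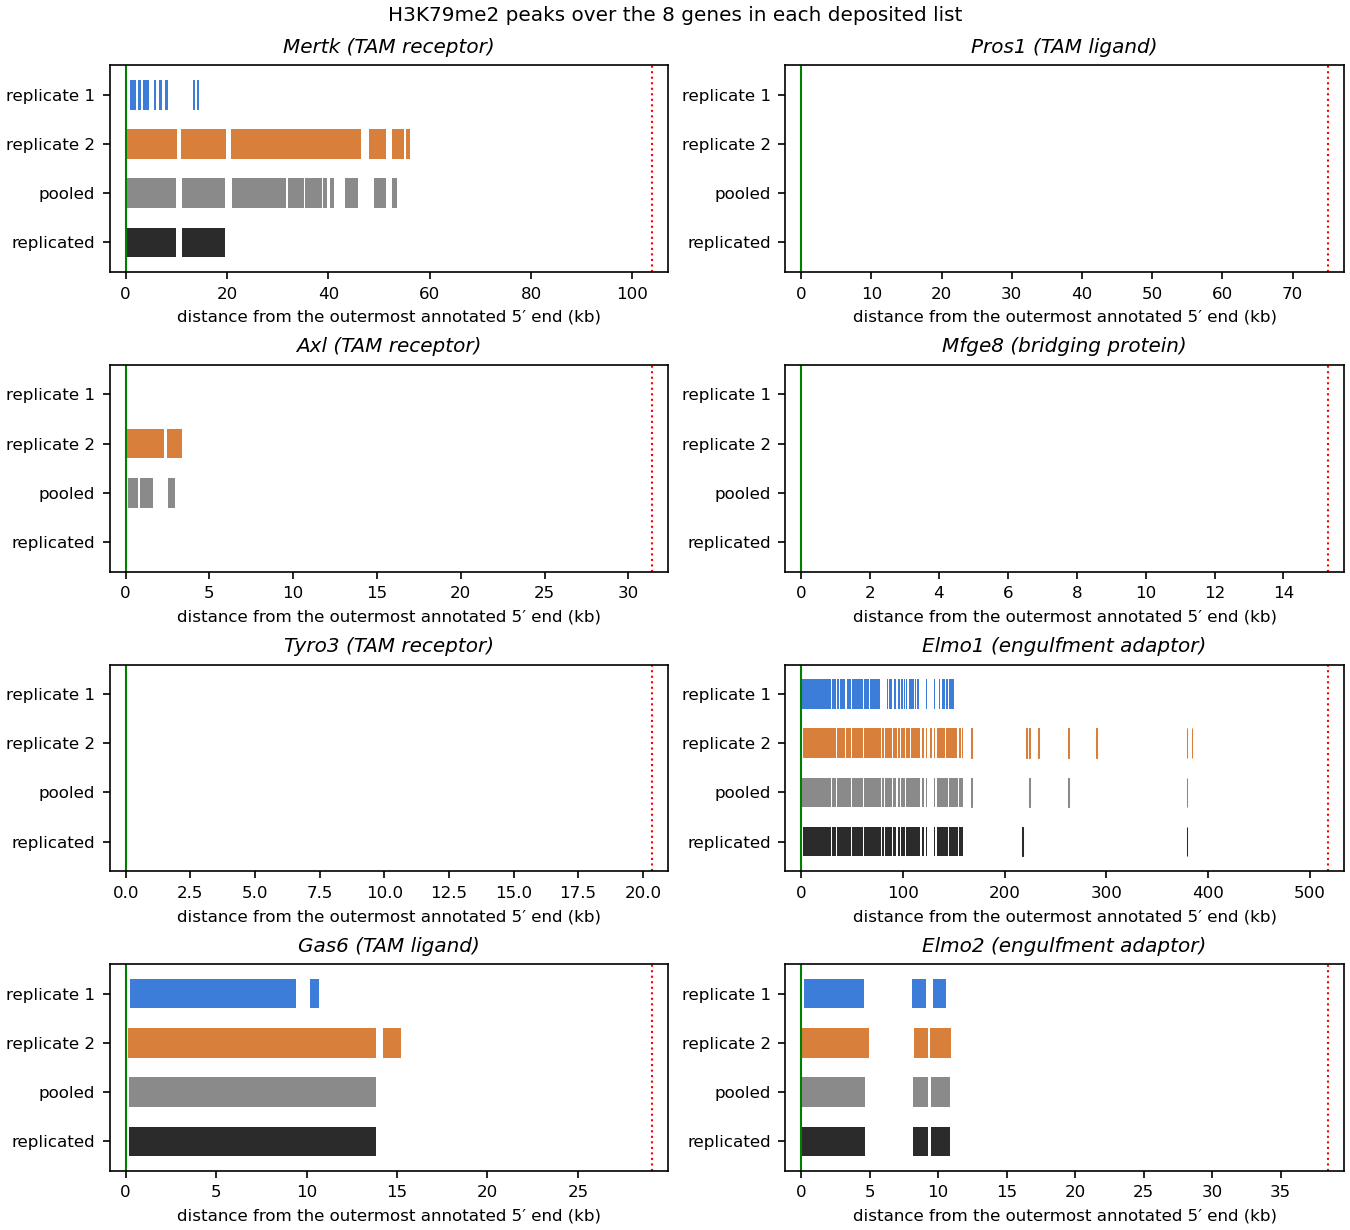
Peaks over each of the 8 genes in the list of replicate 1, of replicate 2, of the pooled alignments and in the replicated list. The horizontal axis is the distance in kb from the outermost annotated 5′ end (green line) to the 3′ end (dotted red line), drawn on a scale of its own for each gene; the peaks beyond 160 kb in Elmo1 have a thin outline so that they remain visible. Mertk was covered to 56150 bp in replicate 2 and to 14435 bp in replicate 1, while Tyro3, Pros1 and Mfge8 were empty in every list.

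The 5′ ends of the receptor and ligand genes are shown because both sets hold genes with and without H3K79me2. RefSeq promoter windows (GRCm38.p6, from 250 bases before to 50 after a gene's start) were found for 8 of the 8 genes, as 11 windows. Each is printed 5′ to 3′ on the gene's strand, with every CpG dinucleotide in capitals.
Mertk, chr2:128698665-128698964, plus strand: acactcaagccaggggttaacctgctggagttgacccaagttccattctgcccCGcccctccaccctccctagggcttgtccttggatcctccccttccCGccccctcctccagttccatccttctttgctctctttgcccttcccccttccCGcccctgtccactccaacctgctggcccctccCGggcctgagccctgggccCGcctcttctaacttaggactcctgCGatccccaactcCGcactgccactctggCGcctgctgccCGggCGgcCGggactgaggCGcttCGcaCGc
Axl, chr7:25788684-25788983, minus strand: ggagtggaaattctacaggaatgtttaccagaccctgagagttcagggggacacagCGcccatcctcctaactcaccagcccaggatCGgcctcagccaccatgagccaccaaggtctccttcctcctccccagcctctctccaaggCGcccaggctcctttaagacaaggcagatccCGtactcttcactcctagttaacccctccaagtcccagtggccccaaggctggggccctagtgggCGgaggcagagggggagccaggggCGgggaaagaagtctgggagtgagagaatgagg
Tyro3, chr2:119799264-119799563, plus strand: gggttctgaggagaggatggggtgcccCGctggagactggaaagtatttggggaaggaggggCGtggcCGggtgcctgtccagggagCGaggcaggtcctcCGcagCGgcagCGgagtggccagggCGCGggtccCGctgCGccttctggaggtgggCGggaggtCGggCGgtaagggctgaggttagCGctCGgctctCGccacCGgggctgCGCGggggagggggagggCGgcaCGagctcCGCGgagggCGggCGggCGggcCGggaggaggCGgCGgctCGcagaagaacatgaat
Gas6, chr8:13494486-13494785, minus strand: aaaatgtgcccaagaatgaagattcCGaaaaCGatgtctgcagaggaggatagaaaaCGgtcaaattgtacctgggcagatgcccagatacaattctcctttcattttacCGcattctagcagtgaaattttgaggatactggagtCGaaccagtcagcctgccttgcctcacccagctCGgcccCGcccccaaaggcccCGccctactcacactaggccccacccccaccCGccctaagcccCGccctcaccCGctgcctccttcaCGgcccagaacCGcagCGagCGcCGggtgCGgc
Pros1, chr16:62854057-62854356, plus strand: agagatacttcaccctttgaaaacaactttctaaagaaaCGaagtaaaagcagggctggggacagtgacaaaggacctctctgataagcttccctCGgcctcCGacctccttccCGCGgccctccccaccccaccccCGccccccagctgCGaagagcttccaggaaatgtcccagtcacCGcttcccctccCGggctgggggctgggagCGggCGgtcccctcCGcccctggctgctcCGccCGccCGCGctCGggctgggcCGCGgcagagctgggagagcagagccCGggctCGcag
The Tyro3 window held 31 CpG dinucleotides, the most of the 8 genes' main windows, although Tyro3 had no covered base. Mertk held 14, Gas6 17, Pros1 21 and Axl 6, against a median of 7 over 32851 RefSeq promoter windows. The windows of Mfge8, Elmo1 and Elmo2 at the gene's 5′ end held 17, 21 and 24.

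Short motifs were counted in the same windows on both strands. The GC box GGGCGG, which contains a CpG, was present at the main start of all 8 genes and in 35.7% of all windows; the Tyro3 window held 6 copies, some overlapping each other, and the Axl window held 2. The PU.1-type motif GAGGAAGT, named for the transcription factor that specifies macrophages, occurred in 3.20% of all windows and in 1 of the 8 main windows, that of Elmo1, at 38 bp after the RefSeq start. The AP-1 motif TGANTCA (7.81% of all windows) and the E box CACGTG (7.15%) had no match in any of the 11 windows. The TATA box TATAAA (13.6%) and CCAAT (37.4%) were also counted; among the main windows Elmo1 held 1 of the former and Elmo2 1 of the latter. These are matches of letters and not sites of binding.

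A wider measure of CpG content, over 500 bp on both sides of the start, placed the genes among all coding genes. A start was called CpG-rich at a GC content of at least 50% and a ratio of observed to expected CpG of 0.6 or more. Of all coding genes 44.4% had a CpG-rich outermost start, against 79.1% of the marked genes and 29.3% of the unmarked. The outermost starts of Gas6 (0.668), Elmo1 (0.892) and Elmo2 (0.699) were CpG-rich, and these 3 genes were marked. Mertk was marked with an observed to expected CpG of 0.568, just under the limit. Mfge8 (0.580), Pros1 (0.463) and Axl (0.322) were also under it. Tyro3 differed between its starts: the outermost was at 0.199, while the start 1781 bp further in, which RefSeq uses, was at 0.844 with 100 CpG dinucleotides and a GC content of 70.7%. Of all CpG-rich starts 54.1% were marked, and of the others 11.4%.

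**Figure D2:**
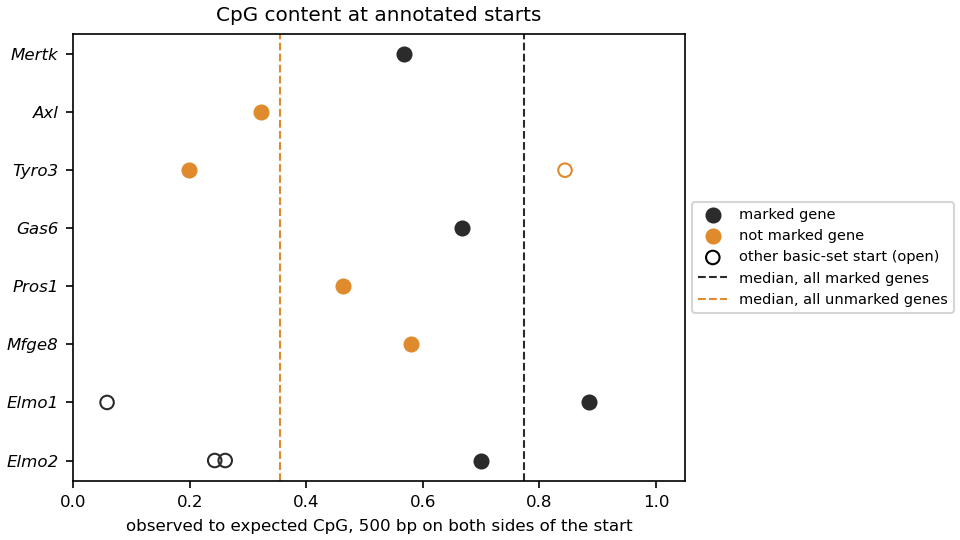
Observed to expected CpG in the 500 bp on both sides of annotated starts of the 8 genes, 1 line per gene. Filled points are the 5′-most start of the basic annotation set, open points other basic-set starts at least 100 bp away, black for genes marked in the replicated list and orange for genes not marked, and the dashed lines are the medians of all marked (0.774) and all unmarked (0.355) coding genes. The marked genes Gas6, Elmo1 and Elmo2 lie above 0.6, and the inner start of Tyro3 lies above the median of marked genes although Tyro3 had no covered base.

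Mertk, the TAM receptor that resident macrophages use to take up dying cells, carried the modification over its first intron, with an extent that differed between the replicates. The gene lies on the plus strand at chr2:128698956-128802894, spans 103939 bp and has 19 exons. In the replicated list 18411 bp (17.7% of the gene) were covered, in replicate 1 5236 bp (5.04%), in replicate 2 51087 bp (49.2%) and in the pooled list 42803 bp. The replicates thus stood far apart, with the replicated list between them.

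In the replicated list the Mertk coverage began 8 bp from the 5′ end and consisted of 2 peaks. The first ran to 10016 bp at a fold of 15.7 and the second from 11113 to 19514 bp at a fold of 12.9. Apart from 140 bp in exon 1, all of it lay in intron 1, which is 30082 bp long. Among the 6658 marked genes, 80.8% had fewer covered bases, since the median was 6118.5 bp, but the covered share of the gene was lower than the median of 33.9%.

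Replicate 1 had 8 small peaks in Mertk, the longest of 1184 bp, between 953 and 14435 bp from the 5′ end. Their folds ran from 2.29 to 4.18 and their −log10 q from 2.32 to 8.51. Replicate 2 had 7 peaks, the longest of 20462 bp, that reached 56150 bp into the gene and touched exons 1 to 6. Its tallest peak had a fold of 24.8. The tallest summits were nevertheless close together, at 3556 bp in replicate 1 and 3837 bp in replicate 2, and every base covered in replicate 1 was covered in replicate 2.

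Replicate 1 covered 10.2% as many Mertk bases as replicate 2. Over the 6783 coding genes with a base in both replicates the median was 60.6%, and 3.21% of these genes had a lower value than Mertk. Genes with no base in replicate 1 are outside that set. Of all coding genes, 7.26% were marked in replicate 2 with no base in replicate 1. Among the 819 genes whose fold in the 5′ window in replicate 2 lay within 10% of that of Mertk, the median was 73.2%, and 9 (1.10%) were at or below Mertk. This comparison was added after the values were seen. Of the 11 peaks in Mertk in the pooled list, 9 with 24392 bp were not in the replicated list, and none of those 9 overlapped a peak of replicate 1. The antisense gene Gm14011 lies inside Mertk, and 2253 bp of it were covered in replicate 2. The peaks carry no strand.

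**Figure D3:**
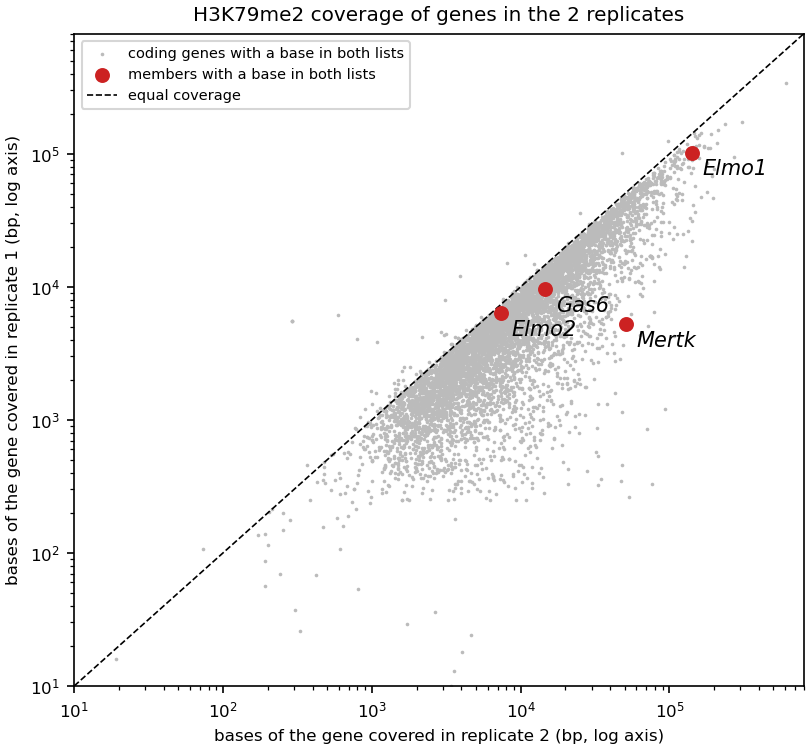
Bases covered in replicate 1 against bases covered in replicate 2, both on log axes in bp, for coding genes with a base in both lists (grey) and the 4 members among them (red). Elmo1, Elmo2 and Gas6 lie near the main cloud, with 72.5%, 86.3% and 65.7% as many bases in replicate 1 as in replicate 2, and Mertk lies below it at 10.2%.

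Axl, the TAM receptor known for its rise under inflammatory conditions, was marked in replicate 2 and had no covered base in replicate 1 or the replicated list. It lies on the minus strand at chr7:25757273-25788705 and has 20 exons. In replicate 2, 2 peaks covered 3047 bp (9.69% of the gene), from 76 to 2267 bp at a fold of 5.96 and from 2487 to 3341 bp at a fold of 4.08. They touched exons 1 to 4 and held the whole of intron 1 (898 bp).

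The pooled list had 3 shorter peaks in the same part of Axl, between 135 and 2947 bp, with 1806 bp in all and folds of at most 3.77. All 3 were missing from the replicated list. Of all coding genes, 7.26% were likewise marked in replicate 2 with no base in replicate 1. Among the 460 genes with a fold in replicate 2 within 10% of that of Axl, 258 (56.1%) had no base in replicate 1, so the pattern of Axl was common at this fold. The neighbouring gene Hnrnpul1, on the same strand 2515 bp from the 3′ end of Axl, was marked in every list, with 12880 bp covered in the replicated list.

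Tyro3, the third TAM receptor, best known from the nervous system and from dendritic cells, had no covered base in any list over its 20372 bp at chr2:119797733-119818104. That held at both of its starts in the basic annotation set, the outermost and the CpG-rich one 1781 bp further in. No other coding gene lay within 10 kb of it.

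Gas6, which encodes the ligand that binds all 3 TAM receptors, carried 1 long block of H3K79me2 over the 5′ part of the gene. It lies on the minus strand at chr8:13465374-13494490, spans 29117 bp and has 15 exons. The block covered 13647 bp (46.9% of the gene) in the replicated list, from 168 to 13814 bp, at a fold of 22.4. It was longer than the longest block of 82.3% of the marked genes. It held the end of exon 1, exons 2 to 4, introns 1 to 3 whole, including the 8150 bp of intron 2, and part of intron 4.

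Replicate 1 covered 9641 bp (33.1%) of Gas6, with a peak from 248 to 9401 bp at a fold of 14.4 and a small one from 10210 to 10696 bp at a fold of 3.25. Replicate 2 covered 14677 bp (50.4%), with a peak from 157 to 13854 bp at a fold of 28.4 and a small one at a fold of 3.13 that ended at 15202 bp. Both replicates therefore showed the same 5′ block, shorter in replicate 1, and every base of replicate 1 lay inside replicate 2. The ratio of covered bases was 65.7%, against the median of 60.6% over all genes. The last 3100 bp of Gas6 overlap the coding gene Tmem255b on the other strand, and no base of that overlap was covered.

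Pros1, which encodes protein S, an anticoagulant made mainly in the liver and the other soluble TAM ligand, had no covered base in any list over 75040 bp at chr16:62854307-62929346. Its neighbour Arl13b, 7266 bp away on the other strand, had 629 bp covered in the replicated list at a fold of 2.18, 1789 bp in replicate 2 and none in replicate 1. Mfge8, the bridging protein between phosphatidylserine and αv integrins, likewise had no covered base over 15293 bp at chr7:79133768-79149060. Hapln3, 2749 bp from Mfge8, had none either. Gas6 was thus the 1 of the 3 genes for soluble phosphatidylserine-binding proteins among the 8 with a peak in any list.

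Elmo1 and Elmo2 encode adaptors that bind Dock proteins, and both were marked in the replicated list and in each replicate. Their layouts differed: Elmo2 had a short block at its 5′ end, and Elmo1 had a run of blocks over the first 160 kb. Elmo1 lies on the plus strand at chr13:20090596-20608353, spans 517758 bp, and has 22 exons. It ranked 23 of the 6658 marked genes by covered bases and 6 by number of blocks, with 29. The median length of the marked genes was 24425 bp, and the covered share of Elmo1, 26.2%, was lower than their median of 33.9%.

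Over the first 160 kb of Elmo1, 83.9% of bases were covered in the replicated list, 64.0% in replicate 1 and 84.7% in replicate 2. Over the other 357758 bp the shares were 0.383%, 0 and 1.57%. The boundary of 160 kb lies just past the end of this run, at 158806 bp in the replicated list. The split therefore partly follows from where the boundary was placed. With it, both replicates had most of their covered bases in the same 5′ part. The last block of that part ended 1601 bp before exon 6 in the replicated list and 1577 bp before it in replicate 2, while replicate 1 ended 10126 bp before it.

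By the exons of the coding transcript Elmo1-201, introns held 99.9% of the covered bases of Elmo1, since its first exons are short and far apart. Intron 1 alone, of 94582 bp, held 85766 covered bases, and introns 2, 4 and 5 held 20248, 21543 and 6553. In that transcript the only covered exonic bases were 73 in exons 4 and 5. The 27 peaks in the first 160 kb had a median width of 3292 bp and a widest of 18400 bp, and 26 gaps of 71 to 6256 bp lay between them.

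Peak folds along Elmo1 were highest in the first 80 kb. In bins of 20 kb, the highest fold in the replicated list was 15.7 in the first bin, 13.4 between 60 and 80 kb, 4.11 between 120 and 140 kb and 7.29 between 140 and 160 kb. Replicate 1 had 9.76, 10.8, 3.87 and 5.89 in the same bins. Replicate 2 had 19.6, 16.1, 4.86 and 8.31. Both replicates thus had their lowest fold and coverage of the first 160 kb between 120 and 140 kb, where 51.1% of bases were covered in the replicated list, and rose again in the next bin.

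**Figure D4:**
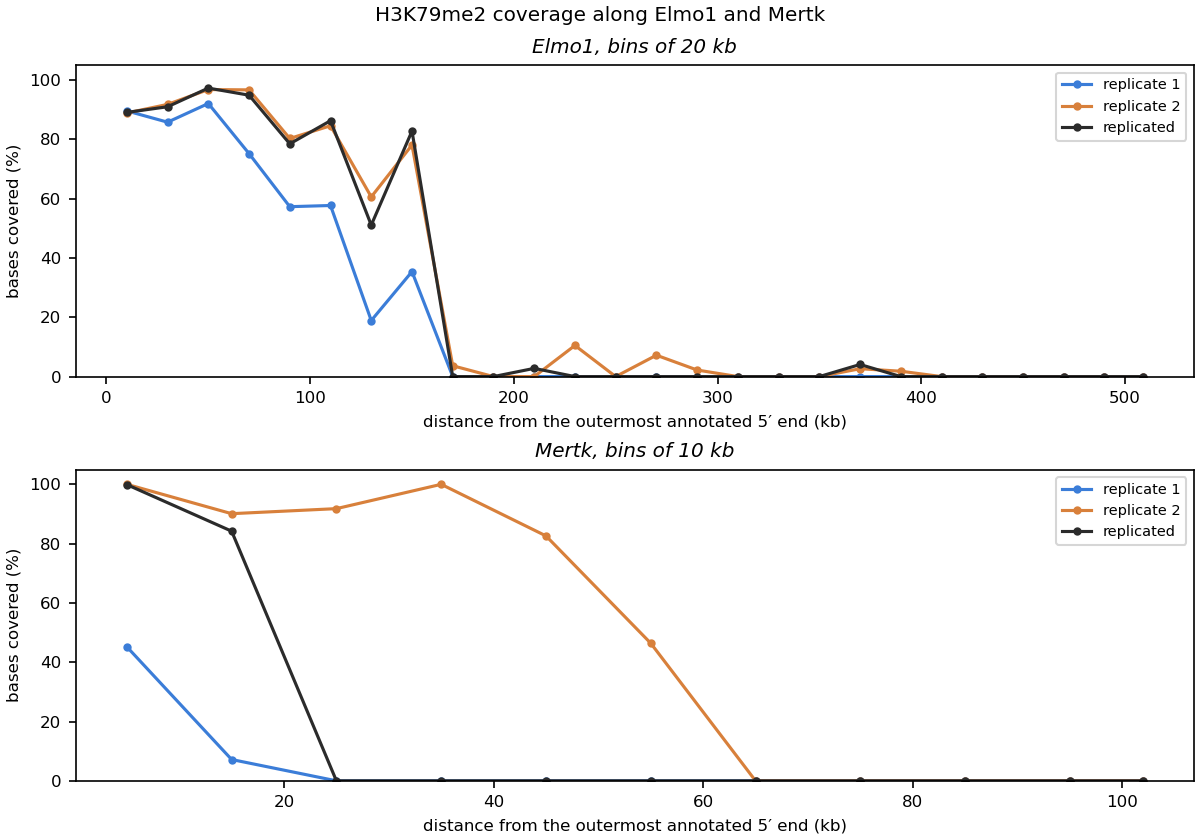
Share of bases covered (%) in bins along Elmo1 (20 kb) and Mertk (10 kb) against the distance in kb from the outermost annotated 5′ end, for replicate 1, replicate 2 and the replicated list. Elmo1 coverage lies between 51.1% and 97.3% in the replicated list up to 160 kb and falls to near 0 beyond; in Mertk, replicate 2 stays above 80% up to 50 kb while replicate 1 has no base beyond 20 kb.

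The coverage of Elmo1 began further from the outermost 5′ end than in most marked genes. It began at 2186 bp in the replicated list and 2213 bp in replicate 2, and 98.8% of the marked genes began nearer, with a median of 377 bp. This share partly follows from the definition of marked, which asks for 200 bp within the first 3 kb. Genes whose coverage begins further in are not among the marked genes. Replicate 1 had a small peak from 1130 to 1522 bp at a fold of 3.87, and its next peak began at 2167 bp. Only 814 bp of the first 3 kb of Elmo1 were covered in the replicated list, so it was not marked where 1000 bp were required or where the window was 1 kb.

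A second start of Elmo1 in the basic annotation set, that of Elmo1-202, lies inside intron 1, 20916 bp from the outermost. In the replicated list a block ended shortly before it and the next began 45 bp upstream of it, so that a gap of 285 bp preceded this start. The next block began 30 bp upstream of the start in replicate 2 and 19 bp downstream of it in replicate 1. The sequence of the gap is shown because the edge of the block and the annotated start fall so close together; it was read from GRCm38, and capitals would mark CpG dinucleotides.
Elmo1 gap, chr13:20111182-20111466, plus strand: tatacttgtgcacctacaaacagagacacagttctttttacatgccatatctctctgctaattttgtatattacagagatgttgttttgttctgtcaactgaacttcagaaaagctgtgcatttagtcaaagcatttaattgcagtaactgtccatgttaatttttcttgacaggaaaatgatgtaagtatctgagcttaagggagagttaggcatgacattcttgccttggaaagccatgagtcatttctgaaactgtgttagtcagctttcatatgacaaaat
It had a GC content of 35.4% and no CpG dinucleotide, and the observed to expected CpG around the Elmo1-202 start was 0.0583, against 0.892 at the outermost start. Further in, the start of Elmo1-206, outside the basic set, lies at 94611 bp, and a block began 396 bp after it in the replicated list and in replicate 2, and 642 bp after it in replicate 1. Of the 34 distinct annotated starts of the 8 genes that lie over 100 bp from the outermost, 4 were under the replicated list.

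Beyond 160 kb, Elmo1 had 2 small peaks in the replicated list. The one at 217056 to 217610 bp had a fold of 2.18 and overlapped no peak of the pooled list or of either replicate. The other, of 816 bp at a fold of 3.10, lay inside the antisense gene Gm32036, and replicate 1 had no peak there. Replicate 2 had 8 peaks beyond 160 kb, with folds of at most 4.08.

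Elmo2 lies on the minus strand at chr2:165288031-165326479, spans 38449 bp and has 22 exons, and by the ratio of covered bases, 86.3%, its replicates were the closest of the members covered in both. Its coverage was 7119 bp (18.5%) in the replicated list, 6400 bp (16.6%) in replicate 1 and 7412 bp (19.3%) in replicate 2. Each list had 3 peaks. In the replicated list they ran from 72 to 4672 bp at a fold of 24.0, from 8138 to 9247 bp at a fold of 5.78 and from 9459 to 10866 bp at a fold of 5.11. The tallest summits of the replicates lay at 1819 and 1726 bp, with folds of 13.9 and 29.9.

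The third block of Elmo2 covered exons 2 and 3, most of exon 4, and the start of Elmo2-201 at 9576 bp. It began 117 bp upstream of that start in the replicated list, 156 bp upstream in replicate 2 and 37 bp downstream in replicate 1. The start of Elmo2-205 at 5653 bp, also in the basic set, fell between the first and second blocks. Slc35c2, on the same strand 161 bp beyond the 3′ end of Elmo2, was marked with 3309 bp covered, and the 3′ part of Elmo2 itself had no covered base.

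Peak by peak, 55 of the 56 peaks of replicate 1 in the 8 genes shared at least 1 bp with a peak of replicate 2, and 27 of the 50 peaks of replicate 2 shared with replicate 1. With a reciprocal overlap of 50%, 16 of the 56 were shared. The replicated list kept 34 of the 50 pooled peaks of these genes. Of the 16 others, 15 had no peak of replicate 1. Of the 34 kept, 27 overlapped a peak of each replicate's own list, and the remaining 7 were in Elmo1.

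The other genes of the pathway were followed as 5 lists with 86 genes in all, of which 54 (62.8%) were marked in the replicated list, 52 in replicate 1 and 62 in replicate 2. The shares of all coding genes were 30.3% in the replicated list, 27.2% in replicate 1 and 35.6% in replicate 2. These 5 lists, too, were chosen with earlier results of these data known. In the replicated list, Lgals3, Cd36, Rhog, Cd47 and Rubcn were not marked at the outermost 5′ end but were marked at another basic-set start. Among the 59 list genes with a base in both replicates, the median ratio of bases in replicate 1 to replicate 2 was 62.8%, and 2 had a lower ratio than Mertk. A further 10 list genes had a base in replicate 2 and none in replicate 1, and are outside that comparison.

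**Figure D5:**
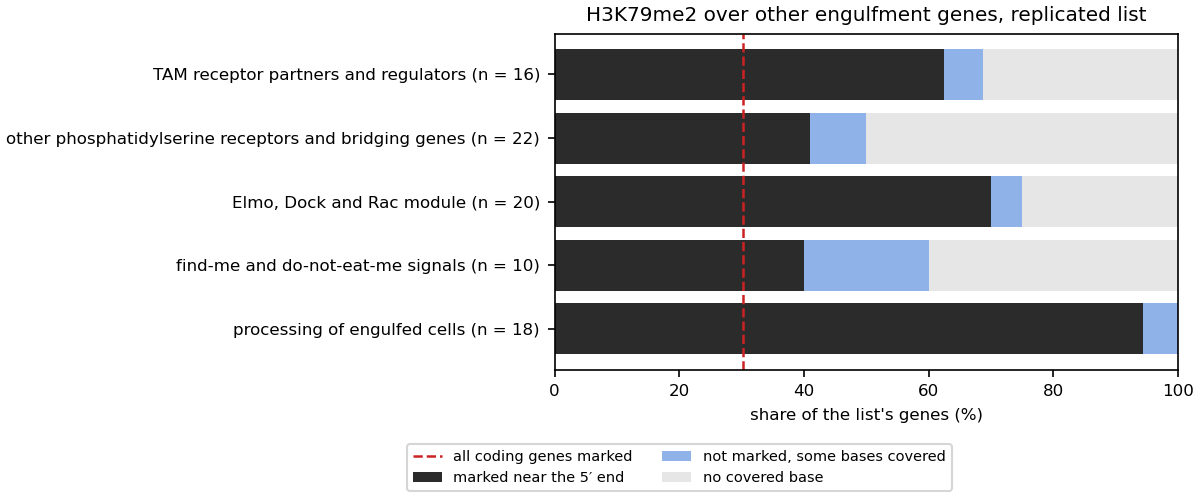
Share (%) of the genes of each of 5 engulfment lists that were marked near the 5′ end, covered without being marked, or without a covered base in the replicated list. The dashed line is the share of all coding genes marked, 30.3%; the lists lie between 40.0% and 94.4%.

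Partners and regulators of the TAM receptors were marked in 10 of 16 cases (62.5%) in the replicated list, against 30.3% of all coding genes. In replicate 1, 10 of 16 were marked, against 27.2%, and in replicate 2, 13 of 16, against 35.6%. The most covered were Grb2, an adaptor of receptor tyrosine kinases, Pik3r1, the regulatory subunit of phosphoinositide 3-kinase, Plcg2, a phospholipase C, and Rxra, the partner of the liver X receptors that control Mertk. Grb2 had 60401 bp covered in replicate 1 and 62705 bp in replicate 2. Pik3r1 had 61052 bp covered (52007 in replicate 1 and 72055 in replicate 2) and Plcg2 59054 bp (54237 and 64907). Rxra had 48454 bp, with 10972 bp in replicate 1 and 62685 bp in replicate 2, a ratio of 17.5%. Nr1h3, a liver X receptor gene, Socs1 and Socs3, genes of the cytokine signalling inhibitors induced by TAM receptors, and Tub, which encodes a proposed bridging protein for Mertk, had no covered base in the replicated list. In replicate 2, Nr1h3 (1442 bp) and Socs3 (2030 bp) were marked. The other liver X receptor gene, Nr1h2, named after its values were seen, was marked in the replicated list and in each replicate. Tub overlaps the coding gene Ric3.

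Of 22 other phosphatidylserine receptors and bridging genes, 9 (40.9%) were marked in the replicated list, against 30.3% of all coding genes. Replicate 1 marked 9 of 22, against 27.2%, and replicate 2 marked 11 of 22, against 35.6%. Lrp1, a receptor of the calreticulin and C1q route, had 38469 bp covered. The integrin genes Itgav (27160 bp) and Itgb5 (24441 bp), which encode the αvβ5 receptor of Mfge8, were both marked although Mfge8 was not. Itgb3, the gene of the other β chain that pairs with αv as an Mfge8 receptor, had no covered base in any list and was named after its values were seen. Itgb5 had 10707 bp in replicate 1 and 64244 bp in replicate 2. Stab1, a scavenger receptor that binds phosphatidylserine directly, had 11929 bp and overlaps the coding gene Nt5dc2. No base of the replicated list was found in Adgrb1 (the receptor BAI1, which signals through Elmo), Ager, a receptor that also binds phosphatidylserine, Edil3, a bridging protein related to Mfge8, or C1qa, a C1q chain gene. Replicate 2 marked C1qa, with 2887 bp. The other C1q chain genes, named after their values were seen, were marked in the replicated list and in each replicate: C1qb had 5441 bp covered (4317 and 5778) and C1qc 3176 bp (3054 and 3216).

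In the Elmo, Dock and Rac list 14 of 20 genes (70.0%) were marked in the replicated list, against 30.3% of all coding genes. The counts were 12 of 20 in replicate 1, against 27.2%, and 15 of 20 in replicate 2, against 35.6%. Vav3 (133622 bp) and Trio (106012 bp), which encode exchange factors, were the most covered, at ratios of 76.6% and 84.2%. Dock4 had 56256 bp, with 4279 bp in replicate 1 and 107582 bp in replicate 2. Dock2, the haematopoietic partner of Elmo1, had 51190 bp (48006 and 65872) and overlaps the coding gene Fam196b. A further pair of Elmo partners, chosen after their values were seen, were covered mainly in replicate 2: Dock1 had 3200 bp in replicate 1 and 38010 bp in replicate 2, and Dock5 none and 13337 bp. Dock1 overlaps the coding gene Fam196a. Elmo3, the remaining Elmo gene, Arhgef16, an exchange factor gene, and Bcar1, which encodes a scaffold that binds Crk, had no base in any list. Abca7, a lipid transporter gene, had 850 bp in replicate 2 and none in the other lists.

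Of 10 genes for find-me and do-not-eat-me signals, 4 (40.0%) were marked in the replicated list, against 30.3% of all coding genes. Replicate 1 marked 4 of 10, against 27.2%, and replicate 2 marked 6 of 10, against 35.6%. Marked in the replicated list were Sirpa (31867 bp), the macrophage receptor for Cd47, and S1pr1 (4019 bp), a receptor for sphingosine 1-phosphate. The inhibitory receptor genes Lilrb4a (3231 bp, overlapping Gm49339) and Pirb (2687 bp) were also marked there. Gpr132, a receptor gene linked to lysophosphatidylcholine, P2ry2, Pecam1, an adhesion molecule gene, and Siglece, an inhibitory lectin gene, had no covered base in the replicated list. In replicate 2, P2ry2, a receptor for the nucleotides that dying cells release, was marked with 6693 bp, and Gpr132 had 1407 bp without being marked. Cd47, named after its values were seen, was not marked at its outermost 5′ end but was marked at another basic-set start, and had the most covered bases of the list, 46162 bp (38887 and 53168).

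Of 18 genes for the processing of engulfed cells, 17 (94.4%) were marked in the replicated list, against 30.3% of all coding genes. Each replicate's own list also marked 17 of 18, against 27.2% in replicate 1 and 35.6% in replicate 2. The exception was Rubcn, with 11310 bp covered further in. Rubcn was marked at another basic-set start and overlaps the coding gene Fyttd1. Uvrag, a regulator of the Vps34 kinase complex, had 121804 bp covered (46935 and 195207), Rab7, the GTPase of late endosomes, 36524 bp (32953 and 39099), Ppard, a lipid-sensing nuclear receptor gene, 32102 bp (8559 and 52495) and Rab5c, an early endosome GTPase gene, 22399 bp (19808 and 22496). Every gene of this list had some covered base in the replicated list. Among the members, Mertk, Gas6, Elmo1 and Elmo2 had covered bases there, and Axl, Tyro3, Pros1 and Mfge8 had none.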

How the data were processed

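The study mapped H3K79me2 by ChIP-seq in 2 replicates of 1 group. Per the deposited text notes, peaks on mm10 were listed for each replicate, for the pooled alignments, and as a replicated list. How reads were aligned, which program called peaks at which threshold, and how the replicated list was chosen were not given in the sources. Depth is unknown. Each deposited peak carries a display score of at most 1000, which was not used, and a summit offset. The deposited fold over the control and the −log10 p and −log10 q are the authors' values. How the fold was normalized was not stated.

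Peaks were merged within a list and set against GENCODE M21 on GRCm38 (chromosomes 1 to 19, X and Y) with Python 3.11.15, pandas 2.3.3 and numpy 2.4.6. Exons and introns are those of 1 basic-set coding transcript per gene. Promoter sequences came from RefSeq (GRCm38.p6). The interval code was tested on simulated data. The replicated list was the main list; the 2 replicates were compared by overlap of at least 1 bp, with no test. The alternatives tried were the other lists, a window minimum of 1 bp or 1000 bp, windows of 1 kb or 5 kb, any basic-set start, peaks at or above a list's median fold, and a reciprocal overlap of 50%.

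The members and the 5 lists were chosen with earlier results of these data known. The text names all 8 members and coding genes that overlap them or lie within 10 kb. From each list it names every marked gene where there were 5 or fewer, otherwise the 4 marked genes with the most covered bases. Up to 4 genes of each list without a covered base are named in alphabetical order. List genes outside this rule were named after their values were seen, or for being marked at a basic-set start other than the outermost 5′ end.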

Additional observations from a re-analysis of the deposited data

How the results depend on the processing

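All 54 alternatives for the counts of marked genes, among the 8 members and in the 5 lists, stayed within 1.5 times the main count. The find-me and do-not-eat-me list reached that limit, with 6 genes in the pooled list or without replicate 1, against 4. The count of members was 4, and it was 3 with a minimum of 1000 bp or a window of 1 kb (without Elmo1) and 5 with the pooled list (with Axl). Leaving out a replicate gave 4 to 5 members. Of the 55 peaks of replicate 1 in members that replicate 2 shared, 16 were shared at a reciprocal overlap of 50%, and 26 of the 26 at or above the list's median fold were shared. Mertk had 18411 bp in the replicated list, 5236 bp without replicate 2 and 51087 bp without replicate 1. Elmo1 fell from 135554 to 75730 bp and Elmo2 from 7119 to 4601 bp where only peaks at or above the median fold were kept. No paired analysis was possible because the 2 replicates form 1 group. Depth is unknown, so a gene without a peak in replicate 1 may lie under that list's limit of detection or lack the modification, which cannot be told apart here.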
